A study of Homo sapiens and Mus musculus with 19 samples.

Results

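The TNF receptor superfamily was followed across lung cancer cells in which NF-kB signalling had been switched up or down. A gene counted as a member when the human array carried a probe set naming that receptor and no other gene, and 10 receptors were taken, TNFRSF9, CD40, LTBR, TNFRSF1B, TNFRSF12A, TNFRSF1A, TNFRSF10A, TNFRSF10B, TNFRSF21 and TNFRSF11B, out of 19775 human genes with such a probe set. The mouse array carried 9 counterparts among 18194 genes, with Tnfrsf10b standing for both TNFRSF10A and TNFRSF10B. Where a gene had several probe sets, the brightest over all arrays of the species was used. All 10 human members passed the filter on dim genes, and 8 of the 9 mouse counterparts did.

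The arrays came from 5 human lines, A549 (labelled lung carcinoma), H23, HCC827 and PC9 (lung adenocarcinoma) and H358 (bronchioalveolar carcinoma), and from mouse Lewis lung carcinoma cells, LLC, labelled LLC-kB OVA. Every culture carried a retroviral vector with GFP and was sorted for GFP, controls included. MiG is the empty vector, IKKb carries an activated form of IKKβ, the kinase that marks IkBα for destruction, and IkB_SR carries a super-repressor form of IkBα that cannot be marked and holds NF-kB in the cytoplasm. Each human line was measured once with each of the 3 vectors, giving 15 arrays in which the 5 lines serve as the replicates of a vector. LLC was measured on 2 arrays with MiG and 2 with IKKb, and IkB_SR was not among its vectors. Nothing in the labels ties the LLC arrays to separate cultures, and p-values in LLC therefore cover only the spread among those arrays, which may be technical.

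Receptors of this family are surface proteins, or in a few cases soluble ones, that bind trimeric ligands of the TNF family. Some carry a death domain and can start apoptosis through caspases, while others bind TRAF adaptors and activate NF-kB. Several of these receptors and their regulators are themselves NF-kB target genes, and many are best known from immune cells although epithelial tumour cells also transcribe them.

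The RefSeq promoter table (GRCh38.p14) held 5 of the 10 members, TNFRSF9, TNFRSF1A, TNFRSF1B, TNFRSF21 and LTBR. The 250 bases before the start are shown for TNFRSF9, whose signal moved with the vectors, and for TNFRSF1A and TNFRSF21, whose signals moved little. Each is 5′ to 3′ on the strand of the gene, and capitals mark a match to the NF-kB type motif GGANNTTCC.
TNFRSF9, chr1:7940840-7941089, - strand: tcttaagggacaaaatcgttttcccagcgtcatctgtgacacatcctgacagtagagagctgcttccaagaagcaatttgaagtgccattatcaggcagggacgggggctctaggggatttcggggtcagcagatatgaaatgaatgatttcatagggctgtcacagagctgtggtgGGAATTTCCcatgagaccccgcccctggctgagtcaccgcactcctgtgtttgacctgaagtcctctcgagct
TNFRSF1A, chr12:6342077-6342326, - strand: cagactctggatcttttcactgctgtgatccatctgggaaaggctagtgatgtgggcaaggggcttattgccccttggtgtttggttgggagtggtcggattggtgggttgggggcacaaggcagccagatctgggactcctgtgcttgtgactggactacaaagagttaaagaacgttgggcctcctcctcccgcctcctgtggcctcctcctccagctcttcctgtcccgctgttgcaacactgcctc
TNFRSF21, chr6:47309906-47310155, - strand: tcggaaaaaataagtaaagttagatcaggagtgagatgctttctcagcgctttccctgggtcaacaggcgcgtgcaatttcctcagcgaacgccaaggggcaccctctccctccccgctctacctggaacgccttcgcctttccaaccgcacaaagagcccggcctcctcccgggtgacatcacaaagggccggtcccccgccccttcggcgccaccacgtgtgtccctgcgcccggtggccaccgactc
Of the 5 promoters, that of TNFRSF9 held the motif, as GGAATTTCC beginning 73 bases before the start. Those letters match on both strands and were counted once. The motif was present in 3.844% of 35116 promoters of the same length. The looser form GGANNNNCC was present in 47.66% of all promoters and in those of TNFRSF9, TNFRSF1B, TNFRSF21 and LTBR, with the TNFRSF9 match being the same letters as above. None of the 5 held TATAAA, found in 10.72% of all promoters, and GGGCGG, found in 42.64%, was in all of them but TNFRSF1A. A match is a description of letters and not a measured binding site.

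Each value is a MAS5 signal, the brightness of a probe set after scaling every array to the same trimmed mean of 500. Array medians ran from 51.3 to 76.5 in the human set and from 55.0 to 64.4 in LLC. A signal below the 40th percentile of all probe sets on its array, which lay between 28.7 and 45.0 in the human arrays, is called dim here. By their brightest probe set, 69.5% to 71.1% of human genes lay above it on each array. NFKBIA, the gene of IkBα, was 1.60 to 7.08 times as bright with IkB_SR as with MiG in A549, H358, HCC827 and PC9, but 0.782 times as bright in H23, so that library is called the array labelled H23 IkB_SR. NFKBIA does not read the super-repressor alone, since with IKKb it was 3.91 times MiG in H358 and 3.34 times in HCC827. Of the pathway genes read below, TNFAIP3 was 927 on the array labelled H23 IkB_SR against 2840 with MiG, but LTB was 77.2 against 41.6. What that array carried was not tested. IKBKB, the gene of IKKβ, was not brighter on the IKKb arrays by its brightest probe set, at 0.794 to 1.03 times MiG over the 5 lines. Its dimmer probe sets differed, as the dimmest was 1.43 to 4.02 times as bright and the other gave 0.689 to 1.35 times MiG. In LLC the brightest Ikbkb probe set gave 1.26 and 1.14 times MiG, and the dimmer ones ran from 0.484 to 2.11 times MiG. The H358 IKKb array also stood apart, with a Dap spike-in signal of 4376 against 1128 and 1103 for its MiG and IkB_SR counterparts, and an actin 3′ to 5′ ratio of 1.74 against 1.41 and 1.38. Of 11 epithelial markers, 7 to 10 lay above the 40th percentile on each human array, with a summed signal of 42716 to 129972. EPCAM, CDH1, KRT8 and KRT18 did so on all 15 arrays, whereas KRT19 was dim on all 3 H23 arrays, at 2.15 at the lowest, and SCGB1A1 was dim on 13 of 15. In LLC, Krt8 and Krt18 were bright, at 4554 to 6327 and 4664 to 7951, but the epithelial cadherin gene Cdh1 was dim on all 4 arrays (1.41 to 19.4), and 3 to 7 of the 11 markers per array lay above the 40th percentile. Of 11 fibroblast and endothelial markers in LLC, 5 to 7 did so, with a summed signal of 10783 to 20871 carried by the collagen gene Col3a1 (9899 to 20078), while Col1a1 and Lum were dim on all 4 arrays. On the human arrays 3 to 7 of these 11 markers did so, with a summed signal of 997 to 3613. COL1A1 (436 to 1470) and PECAM1 (84.5 to 470) were among them on all 15 arrays.

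TNFRSF9 (CD137), a costimulatory receptor best known from activated T cells, was the only member with an adjusted p under 0.05 by limma between IKKb and IkB_SR. Whether its change differed from those of the other members was not tested. Its signals with IkB_SR were 4.08 in H23, 16.1 in PC9, 21.1 in HCC827, 39.9 in H358 and 52.0 in A549. With IKKb the same lines gave 27.8, 66.7, 155, 457 and 156. The IKKb array was the higher of the pair in 5 of 5 lines, while the groups as a whole overlapped, because H23 with IKKb lay below A549 and H358 with IkB_SR. The fold between IKKb and IkB_SR, on the scale of signal plus 16, was 8.46 in H358, 4.61 in HCC827, 2.58 in PC9, 2.52 in A549 and 2.18 in H23. Over the 5 lines the log2 fold change was 1.82 ± 0.31 (SE, 95% interval 1.16 to 2.48), a 3.54-fold difference with an adjusted p of 0.0157. TNFRSF9 was 1 of 10 members past the threshold of 0.05, against 0.933% of all 15212 genes tested in either direction and 0.611% in the higher direction. Because the members were chosen with earlier results of these data known, these shares do not measure enrichment. Without the H358 IKKb array the change was 1.54 with an adjusted p of 0.0283, and without the array labelled H23 IkB_SR it was 1.83 with 0.0361. Leaving out a whole line ended the call for H358 (1.51, adjusted p = 0.0540), HCC827 (1.73, 0.0838) and PC9 (1.94, 0.0657), as did a fit without an intensity trend (0.0596) or to these 2 vectors alone (0.119).

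The MiG arrays lay between the others in 4 of 5 lines for TNFRSF9. Their signals were 28.4 in HCC827, 33.4 in H23, 38.0 in PC9, 60.2 in A549 and 94.8 in H358. Against MiG, IKKb was higher in A549, H358, HCC827 and PC9 by log2 differences of 1.17, 2.09, 1.94 and 0.61, and lower in H23 by a difference of -0.18. The fitted change of 1.13 ± 0.31 had an adjusted p of 0.878. IkB_SR was lower than MiG in 5 of 5 lines, with log2 differences from -1.30 in H23 to -0.16 in A549, and 3.71% of all genes tested were lower in all lines. The fitted change of -0.69 ± 0.31 had an adjusted p of 0.995. Dim signals limit this gene in some lines, since all 3 H23 arrays, HCC827 with MiG and with IkB_SR, and PC9 with IkB_SR were dim.

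TNFRSF9 had 2 further probe sets, both too dim to be tested, and they gave log2 differences between IKKb and IkB_SR of 1.10, higher in 4 of 5 lines, and 1.12, higher in 5 of 5 lines. Because TNFRSF9 is known from lymphocytes, leukocyte markers were read beside it. Of 12 leukocyte markers, 9 had a probe set, and their summed signal was 299 to 706 with MiG, 250 to 561 with IkB_SR and 298 to 971 with IKKb. The number of the 15 arrays above the 40th percentile was 1 for PTPRC, the pan-leukocyte gene for CD45, 0 for NKG7, 2 for CD3D, 6 for MS4A1, 7 for CD3E, 10 for CD14, 11 for ITGAM, 12 for CD2 and 14 for CSF1R. ITGAM, an integrin gene of myeloid cells, was like TNFRSF9 higher with IKKb than with IkB_SR in 5 of 5 lines. It gave 166, 654, 60.1, 42.5 and 438 with IKKb in A549, H23, H358, HCC827 and PC9 against 41.8, 171, 28.6, 12.0 and 30.9 with IkB_SR. With MiG it gave 134, 502, 27.9, 65.1 and 411. Between IKKb and MiG the directions of ITGAM and TNFRSF9 were opposite in H23 and HCC827. CD14 was lower with IKKb than with IkB_SR in 5 of 5 lines, and in that comparison the other 7 had no direction shared by all lines. The part of the cells or genes behind these markers in the TNFRSF9 result was not tested.

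**Figure D1:**
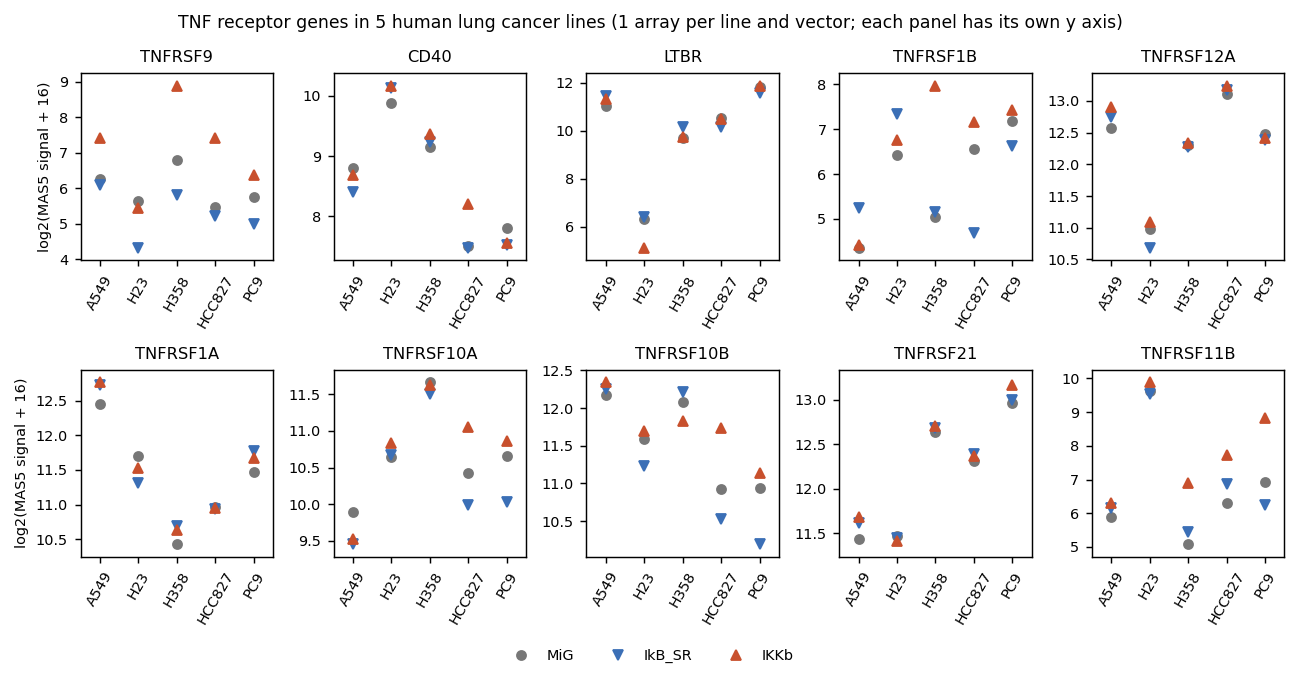
Signal of each receptor gene on the 15 human arrays, as log2 of MAS5 signal plus 16 on the y axis and cell line on the x axis, with circles for MiG, downward triangles for IkB_SR and upward triangles for IKKb. For TNFRSF9, IKKb lies above IkB_SR in 5 of 5 lines, while vectors overlap between lines and MiG lies above IKKb in H23. Points of TNFRSF21, TNFRSF12A and TNFRSF1A lie close together within a line. Each panel has its own y axis.

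Among the other receptors that bind TRAF adaptors without a death domain, none passed the test in any human comparison. CD40, the receptor of antigen-presenting cells for CD40 ligand, was higher with IKKb than with IkB_SR in 5 of 5 lines, but in PC9, H23 and H358 by log2 differences of only 0.03, 0.04 and 0.13. HCC827 had the widest gap, with 280 for IKKb against 163 for IkB_SR and 167 for MiG. The fitted change was 0.24 ± 0.14 (95% interval -0.06 to 0.54, adjusted p = 0.465). CD40 signals differed more by line, from 923 to 1130 in H23 down to 163 to 280 in HCC827 and 168 to 208 in PC9. Between IKKb and IkB_SR the other probe sets of CD40 gave 0.61 and 0.30, each with IKKb the higher in 4 of 5 lines, and -0.17. The probe set at -0.17 had a median signal of 7.05, with IKKb the higher in 2 of 5 lines.

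LTBR, the lymphotoxin beta receptor, separated the lines most sharply of all members in its own signal. It was 63.6, 69.2 and 19.2 in H23 with MiG, IkB_SR and IKKb, and at least 820 on each of the 12 arrays of the other lines. PC9 gave 3551, 3036 and 3721 in the same order. The line means spanned 5.79 log2 units, against a median span of 1.36 over all genes tested. Between IKKb and IkB_SR the lines did not share a direction, with lower IKKb signal in A549, H23 and H358 and higher in HCC827 and PC9, and the fitted change was -0.23 ± 0.20 (adjusted p = 0.652). Without H23 it was 0.03, so the sign of that small change rested on a line in which the IKKb array was dim.

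TNFRSF1B, the TNF receptor without a death domain, varied most from line to line in its response. With IKKb it gave 234 in H358, 157 in PC9, 128 in HCC827, 91.9 in H23 and 5.48 in A549. With IkB_SR the same lines gave 19.8, 82.8, 9.75, 146 and 21.8, and with MiG 17.1, 128, 78.1, 69.8 and 4.58. IKKb was thus above IkB_SR in H358, HCC827 and PC9 and below it in A549 and H23, where log2 differences were -0.82 and -0.59. All 3 A549 arrays were dim, as were H358 with MiG and with IkB_SR and HCC827 with IkB_SR. The wide gaps between IKKb and IkB_SR in H358 and HCC827 are thus measured from dim signals. The fitted change of 0.94 ± 0.49 had an adjusted p of 0.409 and fell to 0.44 without the H358 IKKb array. Relative to MiG the IKKb arrays were higher in 5 of 5 lines, a pattern shared by 3.29% of all genes tested, but the H358 difference of 2.92 stood beside differences of 0.06 to 0.61 in the other 4 lines, and the adjusted p was 0.896.

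TNFRSF12A (Fn14), the receptor for the ligand TWEAK, stayed close to a level set by the line. Its signals were 6057, 6857 and 7664 in A549 with MiG, IkB_SR and IKKb, and 1998, 1634 and 2154 in H23. In H358 the 3 arrays lay between 4956 and 5179, in HCC827 between 8847 and 9656 and in PC9 between 5326 and 5686. The change between IKKb and IkB_SR was 0.14 ± 0.08 (95% interval -0.02 to 0.31, adjusted p = 0.428), with IKKb the higher in 5 of 5 lines.

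Of the 4 members that carry a death domain, none passed the test in any human comparison. TNFRSF10A and TNFRSF10B are the surface receptors through which TRAIL starts apoptosis. TNFRSF10A gave 1356, 1002 and 2113 in HCC827 and 1594, 1030 and 1839 in PC9 with MiG, IkB_SR and IKKb. The same order gave 935, 686 and 719 in A549, 1578, 1619 and 1807 in H23 and 3236, 2899 and 3163 in H358. IKKb exceeded IkB_SR in 5 of 5 lines, by log2 differences of 1.06 in HCC827 and 0.83 in PC9 but 0.07 to 0.16 in the other 3. The fitted change was 0.45 ± 0.14 (95% interval 0.15 to 0.75, adjusted p = 0.167), and the other 2 probe sets of TNFRSF10A gave 0.18 each.

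TNFRSF10B was also widest apart in HCC827 and PC9. With MiG, IkB_SR and IKKb it gave 1922, 1456 and 3385 in HCC827, 1942, 1158 and 2231 in PC9, and 3054, 2399 and 3289 in H23. A549 gave 4604, 4864 and 5180, and H358 gave 4314, 4751 and 3606, the one line in which IKKb was below IkB_SR. Over the 5 lines the change was 0.46 ± 0.17 (adjusted p = 0.249), and without the H358 IKKb array, which stood apart, it was 0.62. The 4 probe sets of TNFRSF10B gave changes from 0.09 to 0.47. Whether HCC827 and PC9 respond differently from the other lines was not tested, since each line had 1 array per vector.

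TNFRSF1A, the receptor through which TNF recruits its death-domain adaptor, was higher with IKKb than with IkB_SR in 3 of 5 lines. The signal was 5586, 6752 and 6945 in A549 with MiG, IkB_SR and IKKb, and between 1367 and 1641 on the 3 H358 arrays. In HCC827 it was 1978, 1947 and 1960. The change between IKKb and IkB_SR was 0.02 ± 0.09, with a 95% interval of -0.18 to 0.22 (adjusted p = 0.954), so a change of the size seen for TNFRSF9 lies outside the interval.

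TNFRSF21 (death receptor 6) had the smallest spread within lines of the members. It ranged from 7989 to 9214 in PC9, from 6363 to 6665 in H358, from 5084 to 5381 in HCC827, from 2765 to 3269 in A549 and from 2705 to 2818 in H23. Its widest gap between vectors within a line was 0.24 on the log2 scale, against 3.08 for TNFRSF9 and a median of 0.72 over all genes tested. The change between IKKb and IkB_SR was 0.04 ± 0.06 (95% interval -0.10 to 0.18, adjusted p = 0.831).

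TNFRSF11B encodes osteoprotegerin, a secreted decoy that binds RANK ligand and TRAIL. With MiG, IkB_SR and IKKb it gave 106, 59.8 and 434 in PC9, 18.0, 27.4 and 102 in H358, and 63.3, 100.5 and 198 in HCC827. A549 gave 42.8, 54.7 and 62.3, and H23 gave 773, 732 and 933. The IKKb array was the highest of its line in all 5 lines, while H23 exceeded every array of the other lines whatever the vector. Against IkB_SR the change was 1.08 ± 0.29 (95% interval 0.45 to 1.70), with an adjusted p of 0.109, and against MiG it was 1.16 ± 0.29, with 0.878. Without PC9 the change against IkB_SR was 0.70, and its other probe set, over the 5 lines, gave 1.07.

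**Figure D2:**
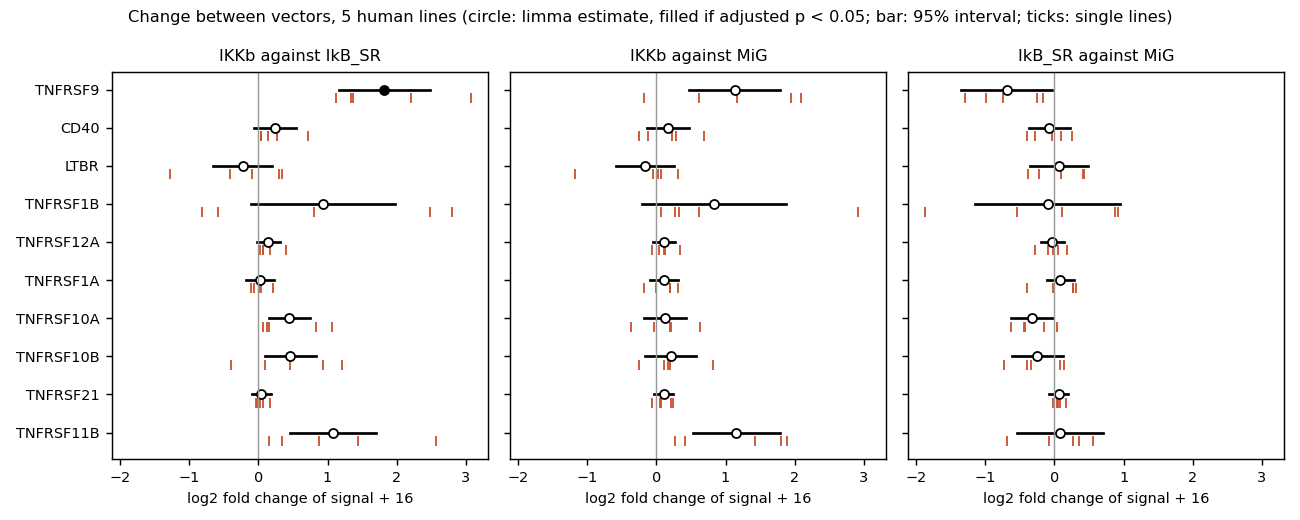
Log2 fold change of signal plus 16 on the x axis for each receptor on the y axis, in 3 panels for the 3 comparisons of vectors over the 5 human lines. Circles are limma estimates (filled where the adjusted p is under 0.05), bars are 95% intervals and short ticks are single lines; the filled circle is TNFRSF9 between IKKb and IkB_SR at 1.82.

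Of the 10 members, which were chosen with earlier results of these data known, 9 had a positive change between IKKb and IkB_SR. Their median was 0.34 on the log2 scale against -0.01 over all genes tested. The share of all genes with a positive change is not given here. Among the 15 other receptors of the family that were tested, 7 had a positive change and 1 was higher in 5 of 5 lines. Their median was -0.05, so the shift of the 10 chosen members does not describe the family as a whole. IKKb was the higher in 5 of 5 lines for 5 members, TNFRSF9, TNFRSF10A, TNFRSF11B, TNFRSF12A and CD40, against 4.51% of all genes. At an unadjusted p under 0.05 there were 4 members, TNFRSF9, TNFRSF11B, TNFRSF10A and TNFRSF10B, against 14.2% of all genes. The comparisons with MiG gave no call by limma for any member. Between IKKb and MiG 0% of all genes were called, and 2 members and 5.52% of all genes had an unadjusted p under 0.05. Between IkB_SR and MiG 0% were called as well, and 2 members and 4.44% of all genes had an unadjusted p under 0.05. The 3 comparisons share arrays, so their values are not independent of each other.

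The variation over the 15 human arrays was divided into a share for the line, a share for the vector and a remainder. For TNFRSF9 the vector took 46.5% and the line 40.4%. The vector share was 12.9% for TNFRSF1B, 12.0% for TNFRSF11B, 8.38% for TNFRSF10B and 7.55% for TNFRSF10A, with the line taking 51.2%, 81.2%, 76.9% and 84.6%. For CD40, LTBR, TNFRSF12A, TNFRSF1A and TNFRSF21 the line took 95.9% to 98.9% and the vector at most 1.15%. The medians over all genes tested were 88.5% for the line and 1.94% for the vector.

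**Figure D3:**
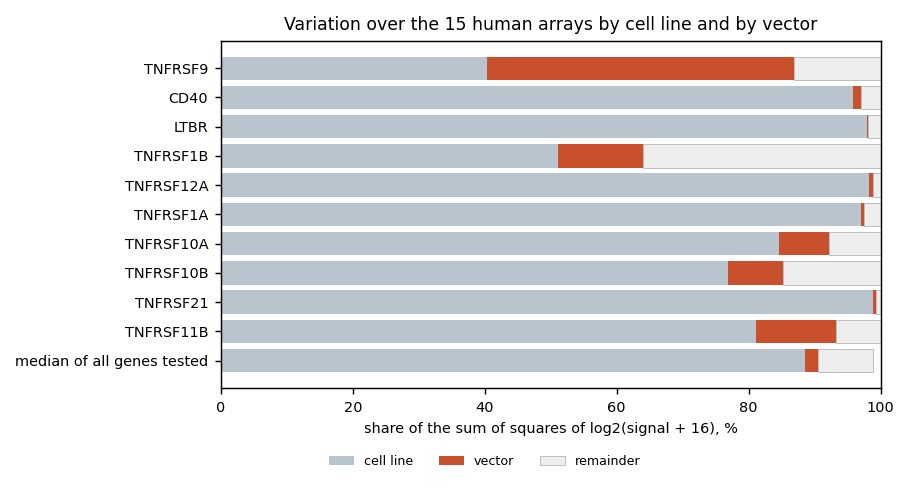
Share of the sum of squares of log2(signal + 16) over the 15 human arrays on the x axis, in percent, taken by cell line, by vector and by the remainder, for each receptor and as the medians over all genes tested (which need not sum to 100). TNFRSF9 is the member with the longest vector segment, 46.5%.

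The genes whose signals most resembled that of TNFRSF9 were sought by centring log2 signals within each line over the 15 arrays of 5 lines. The highest Pearson correlations were those of FBXO28 (0.955), an F-box protein gene, TNFAIP3 (0.953), encoding the ubiquitin-editing inhibitor A20, RRS1 (0.945), a ribosome assembly factor gene, TRAF3 (0.945), an adaptor of this receptor family, and CXCL2 (0.940), a neutrophil chemokine gene. These arrays share lines and vectors, so the coefficients describe likeness and carry no test. Of the other members, TNFRSF11B came closest at 0.739 and TNFRSF1B followed at 0.651, while LTBR had -0.126.

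Beyond the 10 members, genes of the pathway were read from lists of other receptors, ligands, and adaptors and regulators. Of 19 other receptors of the family, 15 were tested between IKKb and IkB_SR and 0 passed by limma. At an unadjusted p under 0.05 there were 2, against 14.2% of all genes, and the median change of the 15 was -0.05. Of 19 ligands, 13 were tested and LTB, the membrane subunit of lymphotoxin and a ligand of LTBR, rose, against 0.611% of all genes called higher. LTB gave 74.6, 72.2, 2572, 3506 and 531 with IKKb in A549, H23, H358, HCC827 and PC9, against 7.90, 77.2, 58.8, 44.4 and 23.8 with IkB_SR. Its change was 3.32 ± 0.67 (adjusted p = 0.0351), with H23 the one line that did not share the direction. The call was lost without the H358 IKKb array (2.80, adjusted p = 0.0763) and without H358 (0.103), HCC827 (0.176) or PC9 (0.173), and the mean of its probe sets changed by 1.83. TNF itself, singled out after its values were seen because it is the ligand of TNFRSF1A and TNFRSF1B, gave 47.3 to 111 with IKKb and 4.84 to 43.2 with IkB_SR, all of the latter dim, and its adjusted p was 0.0972.

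Of 26 adaptors and regulators 23 were tested, 5 rose between IKKb and IkB_SR and 0 fell, with a median change over the list of 0.12. Over all genes tested 0.611% were called higher. The list was chosen with earlier results of these data known, so the count does not measure enrichment. TNFAIP3 rose by 3.39 ± 0.41 (adjusted p = 0.00143), from 120 to 597 in A549 and from 615 to 6075 in PC9. TRAF1, an adaptor bound by TNFRSF9 and TNFRSF1B, rose by 1.70 ± 0.34 (adjusted p = 0.0328), with 700 against 84.6 in H358 but 108 against 99.9 in A549. CYLD, a deubiquitinase that restrains NF-kB, rose by 1.39 ± 0.23 (adjusted p = 0.0152). TRAF3 rose by 1.03 ± 0.18 (adjusted p = 0.0163). BIRC2, the ubiquitin ligase cIAP1, is named after its values were seen to complete the count, and it rose by 0.66 ± 0.10 (adjusted p = 0.00682). All 5 were higher with IKKb in 5 of 5 lines. TNFAIP3 kept its call whichever line was left out. TRAF1 lost it without H23 (adjusted p = 0.103), H358 (0.0946), HCC827 (0.173) or PC9 (0.110) and without the H358 IKKb array (0.0653) or the array labelled H23 IkB_SR (0.0640). CYLD lost it without H23 (0.0603), HCC827 (0.0657) or PC9 (0.0903), and the mean of its probe sets changed by 0.47. TRAF3 and BIRC2 lost it without HCC827 (0.0853 and 0.0640) or PC9 (0.0514 and 0.0642). No gene of the 3 lists passed in either comparison with MiG.

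In LLC, Tnfrsf9 again gave the widest difference among the counterparts. Its signals were 58.0 and 76.8 with MiG and 566 and 314 with IKKb, so the groups did not overlap. The log2 fold change was 2.40 ± 0.35 (95% interval 1.57 to 3.24, 5.29-fold), with an adjusted p of 0.330 over 12549 genes. By limma 0% of genes were called in LLC, and at an unadjusted p under 0.05 there were 1 counterpart, Tnfrsf9, and 1.9% of all genes. With the array number as a block the same change had an adjusted p of 3.41e-08 and 1.78% of genes were called, but that fit has 1 residual degree of freedom and the meaning of the numbers is not given in the labels. Cell type markers were read beside it. Of the 11 epithelial markers 6 were lower on the IKKb array of both same-numbered pairs (Krt8, Krt18, Krt19, Krt7, Cldn4 and Epcam) and 1 was higher. Krt18 went from 7951 and 5610 with MiG to 4841 and 4664. Some of the 6 were mostly dim, since Krt7 and Cldn4 lay above the 40th percentile on 1 of 4 arrays and Krt19 on 2. Of the 11 fibroblast and endothelial markers 5 were higher in both pairs and 3 lower. Pdgfra went from 419 and 218 to 918 and 452, while Col3a1, the brightest of them, went from 20078 and 10602 to 11204 and 9899. The share of all genes higher or lower in both pairs is not given here. Of 10 leukocyte markers 1 was higher and 4 were lower, and Ptprc was dim on all 4 arrays. The part of these markers in the Tnfrsf9 result was not tested. The Dap spike-in split the arrays by number, at 1679 and 1567 on the arrays numbered 1 and 28.7 and 19.4 on those numbered 2. Leaving out MiG array 1, MiG array 2, IKKb array 2 or IKKb array 1 gave changes of 2.24, 2.57, 2.81 and 1.99. Such a fit leaves 1 vector on a single array, so only its effect size is given. Of the other probe sets of Tnfrsf9, the one that could be tested gave 0.71 and the other, dim on 3 of 4 arrays, gave 1.06.

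**Figure D4:**
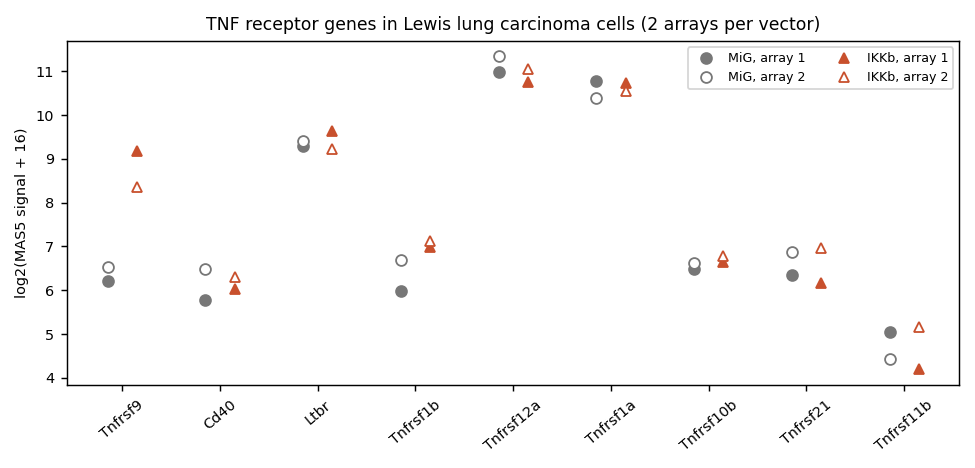
Log2 of MAS5 signal plus 16 on the y axis for the 9 mouse counterparts on the x axis, with grey circles for MiG and orange triangles for IKKb, filled for array 1 and open for array 2 of each vector. Tnfrsf9 shows the widest gap, from 58.0 and 76.8 with MiG to 566 and 314 with IKKb in signal units, and Tnfrsf11b was dim on all 4 arrays.

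Tnfrsf1b gave 47.5 and 87.6 with MiG against 112 and 123 with IKKb, a change of 0.72 ± 0.36 (adjusted p = 0.9997). Its second probe set ran the other way, at -0.75, so no direction is given for this gene in LLC. Tnfrsf10b gave 73.1 and 82.8 against 84.8 and 93.9. Tnfrsf9, Tnfrsf1b and Tnfrsf10b were thus the 3 of 8 tested counterparts with both IKKb arrays above both MiG arrays, a pattern found in 10.9% of all genes.

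The remaining LLC counterparts overlapped between vectors. Tnfrsf1a gave 1738 and 1321 with MiG and 1689 and 1492 with IKKb, and Ltbr gave 615 and 658 against 776 and 583. Tnfrsf12a gave 2003 and 2576 against 1709 and 2103, Tnfrsf21 gave 65.9 and 101 against 56.0 and 108, and Cd40 gave 39.3 and 73.7 against 49.0 and 63.5. Their changes lay between -0.26 and 0.08, with the intervals reaching as far as -1.02 and 0.99. Tnfrsf11b, at 2.28 to 19.8, was dim on all arrays and was not tested.

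With all 4 LLC arrays and no block, no gene of the 3 lists passed. With the block, 1 of 7 other receptors, 0 of 5 ligands and 3 of 23 adaptors and regulators were called, all higher with IKKb. Over all genes the block called 1.78% in either direction. Traf1 gave 20.3 and 2.93 with MiG, both dim, against 313 and 176 with IKKb, and had an adjusted p of 1.52e-08 with the block and 0.330 without it. Without a block the Traf1 change was 3.73 without MiG array 1 and 2.79 without MiG array 2, each leaving MiG on a single array. Tnfaip3 gave 153 and 244 against 671 and 434 (adjusted p = 2.09e-05 with the block). Its change without a block was 1.71 when MiG array 2 was left out, and the mean of its probe sets changed by 0.67. Traf2 gave 284 and 320 against 667 and 448 (0.00217), and Fas, a death receptor, gave 13.7 and 30.0, both dim, against 88.9 and 77.2 (0.0335). Traf1 and Fas passed the filter of at least 2 LLC arrays only through their IKKb arrays. For both genes the filter thus favoured a higher IKKb signal, which limits what their p-values can show.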

How the data were processed

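RNA of GFP-sorted cells was amplified to biotinylated cRNA and read on Affymetrix arrays of 1 colour, per the labels. The deposited intensity of each probe set is a linear MAS5 signal from GCOS 1.4, per the submitters' processing notes. The mean of each array without the lowest and highest 2 percent was 500. There were 54675 human and 45101 mouse probe sets, of which 41097 and 34958 name 1 gene. Detection calls were not used here.

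The brightest probe set by mean log2 stood for a gene. Signals were taken as log2(signal + 16), so fold changes of dim genes are understated. Genes above the 40th percentile of all probe sets of an array on at least 5 human or 2 LLC arrays were kept, 15212 human and 12549 mouse genes. limma 3.58.1 in R 4.3.3 (lmFit, eBayes with an intensity trend, two-sided) was fitted to all 15 human arrays with the line as a block, and to the 4 LLC arrays without one, with Benjamini-Hochberg adjustment over all genes and a threshold of 0.05. The pairing by line comes from the labels, and deviations of arrays of one line from their vector means correlated at 0.80 to 0.92. The code was tested on simulated data. The number of arrays limits the precision. The members, lists and motifs were chosen with earlier results of these data known. Named genes were all members, up to 4 per list, comparison and direction past the threshold with the largest change, and the 5 genes most like TNFRSF9. Alternatives covered the pseudocount, normalisation, filter, probe set rule, prior, block and each left-out line or array. Figures were drawn with matplotlib in Python.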

Additional observations from a re-analysis of the deposited data

Results flagged for a closer look

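One signal lay far from the rest of its group. LTBR on the array labelled H23 IkB_SR was 69.2, while the nearest of the other IkB_SR arrays was at 1111 and the highest at 3036, so that the gap took 0.722 of the log2 range of the group, above the critical share of 0.71 for 5 samples. The other H23 arrays gave LTBR signals of 63.6 and 19.2. Of 30 groups of 5 arrays examined this was the only one, and chance alone flags about 5 percent of such groups.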

How the results depend on the processing

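Between IKKb and IkB_SR in the human lines, 1 member passed in the reported fit, and 0 passed with a filter at the 60th percentile, which removed TNFRSF9, without an intensity trend (adjusted p = 0.0596), with no replicate block (0.99996) and with the arrays of these 2 vectors alone (0.119). Leaving out 1 line gave 0 to 1 members. In LLC 0 members passed, 1 with the replicate block, and 0 to 1 when 1 array was left out, where a lone array was assumed to vary like the others. TNFRSF9 changed by 1.15 to 2.47 over pseudocounts of 64 and 1 and by 1.35 as a mean of its probe sets. Over all alternatives its adjusted p ran from 0.0123 to 0.99996, and 11 of 17 kept it past the threshold. Over all genes, calls between IKKb and IkB_SR numbered 142 in the reported fit and 0 to 149 otherwise, and in LLC 0 and 0 to 223. Other alternatives on the counts of members gave the reported count.

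For single genes 640 values kept their direction and side of the threshold, 34 changed sign, 6 lost and 4 gained the threshold, and the cause was not tested. None of the sign changes concerned a value past the threshold. For the pathway genes named with a call, 112 values kept their side of the threshold, 38 lost it, 7 gained it and 0 changed sign; with no replicate block none of the 6 human ones passed. Without the array labelled H23 IkB_SR, chosen after the data were seen, TNFRSF1A between IKKb and IkB_SR was -0.065, and between IkB_SR and MiG TNFRSF12A was 0.030 and LTBR -0.069. Other tested probe sets whose sign differed gave, between IKKb and IkB_SR, -0.032 for TNFRSF21, -0.17 for CD40 and 0.21 for LTBR. Between IKKb and MiG they gave 0.51 for LTBR and -0.016 for TNFRSF10A. Between IkB_SR and MiG they gave -0.24 for TNFRSF11B, 0.12 for TNFRSF10B and 0.32 for CD40, and in LLC -0.75 for Tnfrsf1b and 0.031 for Tnfrsf12a. Means over probe sets were 0.029 for LTBR between IKKb and MiG, -0.077 for TNFRSF11B between IkB_SR and MiG and -0.018 for Tnfrsf1b. Leaving out 1 line moved, between IKKb and IkB_SR, LTBR from -0.37 to 0.032 and TNFRSF1A from -0.030 to 0.051. Between IKKb and MiG it moved LTBR from -0.28 to 0.089 and TNFRSF10A from -0.0016 to 0.25. Between IkB_SR and MiG it moved CD40 from -0.16 to 0.0061, LTBR from -0.026 to 0.18, TNFRSF11B from -0.036 to 0.27, TNFRSF12A from -0.086 to 0.030 and TNFRSF1B from -0.36 to 0.34. Leaving out 1 LLC array moved Cd40 from -0.32 to 0.38, Ltbr from -0.12 to 0.28, Tnfrsf1a from -0.13 to 0.26 and Tnfrsf21 from -0.44 to 0.34. MAS5 signals near background are noisy, which limits TNFRSF9, TNFRSF1B and TNFRSF11B in lines where they were dim.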
